A study of Homo sapiens with 8 samples.

Results

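The comparison described here set HCT116 cells that expressed a short hairpin RNA against CDK8 (shCDK8) beside HCT116 cells that expressed a control hairpin (shControl), both after 40 h without serum. It took 4 of the 8 arrays of the series: 2 starved shControl arrays and 2 starved shCDK8 arrays, chosen by hairpin and by the absence of serum as the labels give them. HCT116 is an established human colorectal cancer cell line with wild-type p53. The other 4 arrays held the same lines after 30 min in medium with 10% serum and were used for the shared estimate of spread and for a look at the same genes in separate samples. The labels give 1 control hairpin and 1 CDK8 hairpin, and they do not say whether a line was a pool or a clone or whether duplicates were separate cultures. A difference between the lines therefore holds the knockdown together with anything else in which they differed, and p-values measure the spread between these arrays, which may be technical.

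CDK8 is a cyclin-dependent kinase. With its partner cyclin C and the large subunits MED12 and MED13 it forms a module that docks onto Mediator, the complex that carries signals from DNA-bound transcription factors to RNA polymerase II. The module can hold back or favour transcription depending on the gene, and CDK8 is known in colorectal cancer cells as a gene that can be amplified and as a cofactor of beta-catenin. Starvation removes growth factors, which lowers the activity of the RAS and PI3K pathways and slows the cell cycle.

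All values are log2 levels of a probe set, so a difference of 1 is a 2-fold difference. A gene is said to be higher or lower, to have risen or to have fallen in shCDK8 cells where limma's adjusted p over all 18417 genes tested was below 0.05. Errors of differences are standard errors (SE) of the model, errors of levels are SDs, and n is 2 arrays per group throughout. Levels of single genes are given for array 1 and array 2 of each line, in that order. Duplicate starved arrays correlated across genes with r of 0.997 (shControl) and 0.998 (shCDK8). The median absolute difference of a gene was 0.0858 between the shControl duplicates and 0.0808 between the shCDK8 duplicates. It was 0.0981 between the means of the lines. Means of 2 arrays vary less than single arrays, so the last value is not on the same scale as the other values.

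The targeted transcript was examined first. CDK8 is measured by probe set 7968199, which the array annotation pairs with both CDK8 and ADRA1B, so its value belongs to the probe set and not to 1 gene. It read 9.23 and 9.20 in the shControl arrays and 7.09 and 6.99 in the shCDK8 arrays, and was 4.53-fold lower (log2 -2.18 ± 0.06 SE, adjusted p = 1.44e-05 in a limma fit over all probe sets). None of the 6 measured other members of the kinase module passed the threshold in either direction, beside 13.4% of all genes. With 6 genes this count is near that share and is no result about the module. The paralog CDK19 read 8.21 and 8.32 in the shControl arrays and 8.44 and 8.54 in the shCDK8 arrays (difference 0.23 ± 0.07 SE, adjusted p = 0.0646). The cyclin CCNC read 9.74 and 9.55 in the shControl arrays and 9.43 and 9.52 in the shCDK8 arrays (difference -0.17 ± 0.08, adjusted p = 0.203). CDK19 did pass as higher when the variance prior followed intensity (adjusted p = 0.0289) or when dim genes were dropped (0.0413), and its adjusted p over all alternatives reached 0.294. Of the 24 measured subunits of core Mediator, 0 were lower, beside 6.28% of all genes. MED20 alone was higher (4.17% of the list, beside 7.13% of all genes), with a difference of 0.28 (adjusted p = 0.0415). Both counts are near the shares of all genes and are no result about the list. The MED20 call was lost without any 1 of the starved arrays (differences between 0.23 and 0.34). It was also lost with each array centred on its median (adjusted p = 0.0544). Under that centring, without shCDK8 array 2 and without shControl array 1, the list had 1 lower member in each case, and it had 2 under cyclic loess.

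In all, 2470 genes passed the threshold, 13.4% of those tested. Of these, 1313 were higher in shCDK8 cells (7.13%) and 1157 were lower (6.28%). Most differences were small: 957 of the rises and 973 of the falls were under 1.5-fold, while 109 genes were at least 2-fold higher and 43 at least 2-fold lower. The median difference over all genes was -0.01. Among all genes tested, the shCDK8 arrays lay entirely above the shControl arrays for 24.4% and entirely below them for 27.7%. All 1313 higher and all 1157 lower genes were of this kind, so a lack of overlap adds nothing to a call. Arrays without overlap are common with 2 against 2. The count depended on every starved array: it was 1468 without shCDK8 array 1, 1488 without shCDK8 array 2, 1599 without shControl array 1 and 1588 without shControl array 2. Of the genes that passed, 622 higher and 445 lower ones also passed with the same sign whichever of the 8 arrays was left out, and the genes named below as higher or lower are of that kind unless stated otherwise. Against a minimum difference of 1.5-fold, 155 genes passed (0.842%), 114 higher and 41 lower. Among the 4605 genes with the lowest mean level (2.71 to 5.55) 74 were higher and 57 lower, and among the 4604 with the highest 498 and 553. Some genes below, such as TNFSF18, TNFSF4, TM4SF18, FGF9 and DPP4, read in that lowest range in 1 of the lines. Their folds may depend on the background of the array, which was not tested. Of the 13837 probe sets not paired with exactly 1 gene, 115 were higher and 122 lower (1.71%).

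**Figure D1:**
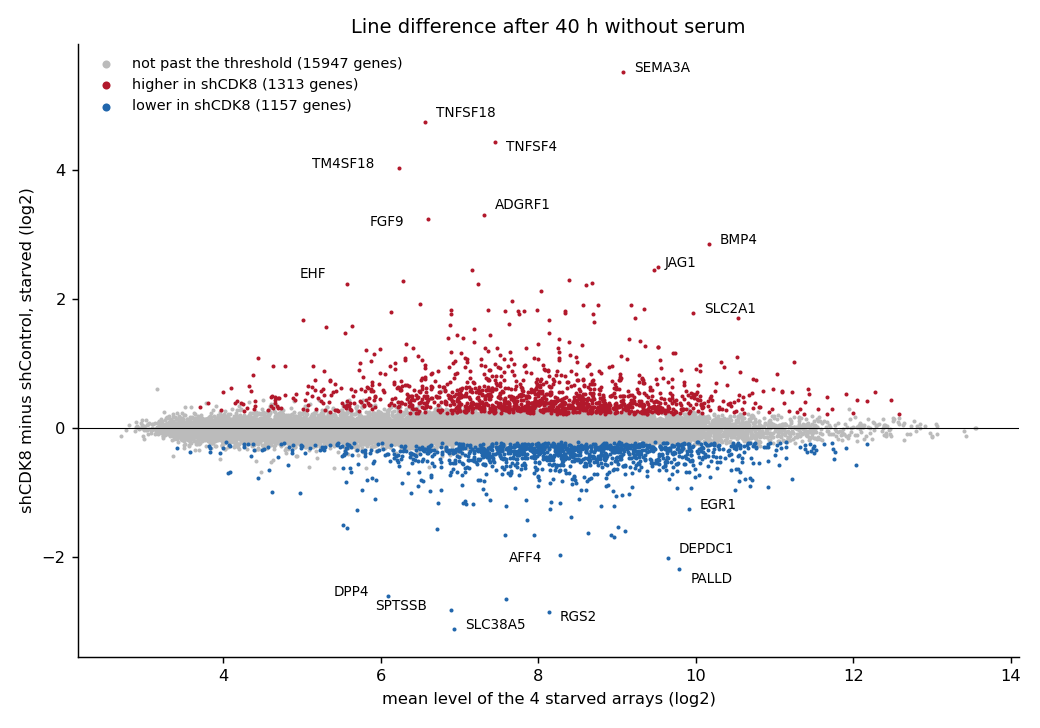
Difference between the lines in starved cells (shCDK8 minus shControl, log2, vertical axis) against the mean level of the 4 starved arrays (log2, horizontal axis), 1 point per gene. Red points are the 1313 genes higher and blue points the 1157 genes lower in shCDK8 cells; SEMA3A at the top and SLC38A5 at the bottom have the largest differences.

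Promoter sequences are shown for the gene groups with the highest share of falls, which belong to the cell cycle. Genes of mitosis are known to carry a cell cycle homology region near the start of transcription, often with CCAAT boxes bound by NF-Y. In resting cells the region is bound by the DREAM complex, which holds these genes silent. Genes of DNA replication often carry E2F sites, and replication-dependent histone genes carry TATA and CCAAT boxes. The 120 bases before the RefSeq start (GRCh38.p14) of 8 lower genes are shown because they hold these motifs, a choice made after their values were seen. Capitals mark matches on either strand, first of the cell cycle homology region core (TTTGAA or TTCGAA) and CCAAT in 5 mitotic genes, DEPDC1 (chr1:68497083-68497202, minus strand), HMMR (chr5:163460512-163460631, plus), CDC20 (chr1:43358861-43358980, plus), KIF11 (chr10:92593010-92593129, plus) and ESPL1 (chr12:53268179-53268298, plus).
DEPDC1: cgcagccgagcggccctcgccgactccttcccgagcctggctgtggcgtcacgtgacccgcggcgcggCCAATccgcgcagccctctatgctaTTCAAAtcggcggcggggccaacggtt
HMMR: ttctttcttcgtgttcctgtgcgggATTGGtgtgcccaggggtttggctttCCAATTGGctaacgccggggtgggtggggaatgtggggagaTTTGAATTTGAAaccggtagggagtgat
CDC20: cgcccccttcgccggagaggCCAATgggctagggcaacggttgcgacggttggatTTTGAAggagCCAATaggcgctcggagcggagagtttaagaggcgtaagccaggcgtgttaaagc
KIF11: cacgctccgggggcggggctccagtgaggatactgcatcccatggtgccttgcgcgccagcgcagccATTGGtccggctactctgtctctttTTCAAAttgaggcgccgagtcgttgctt
ESPL1: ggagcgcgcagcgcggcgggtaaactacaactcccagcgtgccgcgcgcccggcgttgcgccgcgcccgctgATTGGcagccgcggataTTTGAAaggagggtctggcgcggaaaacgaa
The next pair are histone genes, H2AC13 (chr6:27808053-27808172, plus) and H3C10 (chr6:27809931-27810050, plus), with capitals at TATAAA and CCAAT.
H2AC13: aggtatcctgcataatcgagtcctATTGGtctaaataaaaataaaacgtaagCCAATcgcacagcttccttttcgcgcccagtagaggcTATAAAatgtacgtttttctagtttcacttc
H3C10: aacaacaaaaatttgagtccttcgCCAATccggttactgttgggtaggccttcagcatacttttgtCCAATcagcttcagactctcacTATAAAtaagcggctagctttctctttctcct
The last is the replicative helicase subunit MCM6 (chr2:135876444-135876563, minus), with capitals at the E2F match (TTTGGCGC or TTTCGCGC), which here overlaps a second match on the other strand.
MCM6: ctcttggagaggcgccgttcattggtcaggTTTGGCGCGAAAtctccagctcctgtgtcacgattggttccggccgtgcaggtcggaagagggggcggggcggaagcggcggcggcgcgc

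DEPDC1, a mitotic regulator, read 10.77 and 10.53 in the shControl arrays and 8.55 and 8.72 in the shCDK8 arrays and was 4.04-fold lower in shCDK8 cells (log2 -2.01 ± 0.10 SE, adjusted p = 2.22e-06). HMMR, a spindle protein that also binds hyaluronan, read 8.49 and 8.31 in the shControl arrays and 6.59 and 6.90 in the shCDK8 arrays and was 3.16-fold lower (-1.66 ± 0.11, adjusted p = 1.14e-05). CDC25C, the phosphatase that activates CDK1 at the entry into mitosis, read 7.89 and 7.63 (shControl) against 6.62 and 6.54 (shCDK8) and was 2.26-fold lower (-1.18 ± 0.09). Both shCDK8 arrays were below both shControl arrays for each of these genes, as for every lower gene. KIF20A, a kinesin of cytokinesis, read 9.53 and 9.35 (shControl) against 8.40 and 8.53 (shCDK8). CDC20, which activates the anaphase-promoting complex, read 10.29 and 10.17 (shControl) against 9.27 and 9.33 (shCDK8). KIF11, the kinesin that separates the spindle poles, read 8.54 and 8.60 (shControl) against 7.68 and 7.76 (shCDK8). These were 1.96-fold, 1.90-fold and 1.80-fold lower, and CENPE, NUF2 and ESPL1, a kinetochore kinesin, a kinetochore subunit and the protease separase, were lower by differences of -0.82 ± 0.11, -0.80 ± 0.10 and -0.79 ± 0.07.

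Over the 4 mitotic lists, 69 of 92 measured genes were lower and 1 was higher, beside 6.28% and 7.13% of all genes. These shares of all genes are the measure for every list below, and a count near them is no result about its list. Among 20 regulators of mitotic entry and exit, 16 were lower (median difference -0.43 over the list), among 25 genes of the spindle and cytokinesis 20 (-0.56), among 27 of the kinetochore and its checkpoint 18 (-0.39) and among 20 of condensin and cohesin 15 (-0.37). The count of lower genes was between 52 and 66 with 1 array left out, and 52 of the 69 passed whichever array that was. The condensin and cohesin count was the only 1 of these 4 to move by over 1.5 times, to 9 without shCDK8 array 1. The single higher gene was SMC3, a cohesin subunit (0.33, adjusted p = 0.00929), a call lost without shCDK8 array 2 (adjusted p = 0.0660) and without shControl array 2 (0.0554). MKI67, the proliferation marker Ki-67, read 10.28 and 10.51 (shControl) against 9.52 and 9.82 (shCDK8), a difference of -0.73 ± 0.11. In bulk RNA, fewer cells in a phase of the cycle and less RNA per cell cannot be told apart.

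Genes of DNA replication were lower too. Of 44 measured, 28 were lower and 0 higher (median -0.28), and of 17 genes of nucleotide synthesis 8 were lower and 0 higher (-0.18). The replication count was 15 without array 1 of either line, and the nucleotide count was 5 without array 1 of either line and 4 without shControl array 2. ORC2, a subunit of the origin recognition complex, read 9.33 and 9.29 (shControl) against 8.37 and 8.47 (shCDK8), a 1.86-fold difference (-0.90 ± 0.07 SE, adjusted p = 3.37e-05). RFC5, which loads the sliding clamp, was lower by a difference of -0.63 ± 0.06, and MCM2 and MCM6, helicase subunits, by -0.55 and -0.44. TK1 and RRM2, which make deoxynucleotides, had differences of -0.62 ± 0.07 and -0.55 ± 0.09. Each had both shCDK8 arrays below both shControl arrays, as every lower gene did.

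Of 36 measured histone genes 18 were lower and 0 higher (median -0.29), but 5 of the 18 passed whichever array was left out. The count was 6 without shCDK8 array 1, 11 without its array 2 and 8 without shControl array 1. H2BC14 read 11.17 and 11.09 (shControl) against 10.16 and 10.31 (shCDK8) (1.86-fold lower) and H2AC13 read 9.54 and 9.38 (shControl) against 8.90 and 8.61 (shCDK8) (1.63-fold lower). Histone genes resemble each other in sequence, and a probe set may also detect a near-identical copy. Of 27 genes of homologous recombination and Fanconi repair, 10 were lower and 0 higher (median -0.21), with 4, 6 and 5 lower without shCDK8 array 1, shCDK8 array 2 and shControl array 1. BRCA1, a scaffold of recombination, was lower by a difference of -0.57 ± 0.08.

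Motif matches were counted between 250 bases before and 50 bases after the start in the 14237 promoters matched by symbol. The cell cycle homology region core was present in 40 of 60 promoters of lower mitotic-list genes (66.7%) and in 13.4% of all promoters. Mitotic-list genes that did not pass held it in 11 of 16 promoters (68.8%), a share close to that of the lower members. The core together with CCAAT was in 30 of the 60 lower mitotic promoters and in 5.44% of all. The E2F match was in 10 of 30 promoters of lower replication and nucleotide genes (33.3%), in 3 of 24 of those that did not pass (12.5%) and in 1.66% of all. All 16 matched promoters of lower histone genes held TATAAA, as did 8 of the 18 of histone genes that did not pass and 1281 of all 14237 promoters. CCAAT stood in 15 of the 16 and in 15 of the 18, and in 36.3% of all. Among all genes regardless of list, the core was in 10.0% of the promoters of higher genes and 19.7% of those of lower genes. A match describes letters in this window and was not tested as a site.

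**Figure D2:**
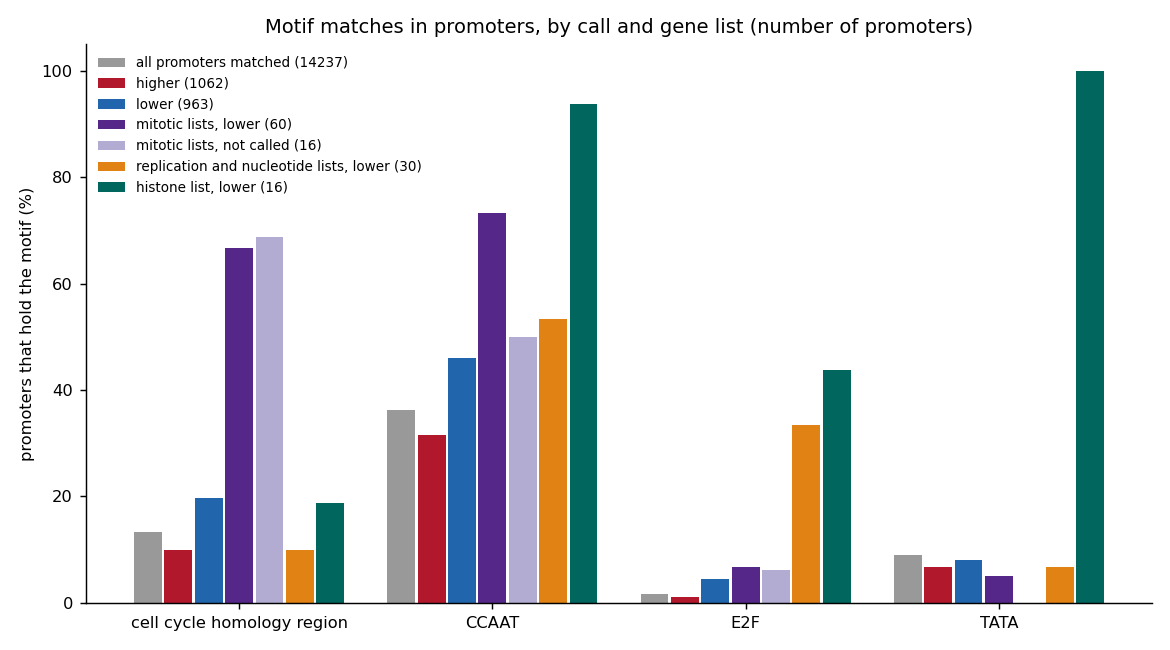
Share of promoters (percent, vertical axis) with at least 1 match to each of 4 motifs between 250 bases before and 50 bases after the start, with 1 bar per gene set and the number of promoters in the legend. The bars for the cell cycle homology region are 66.7% for lower and 68.8% for not called mitotic genes, beside 13.4% of all promoters.

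The transcription factor p53 halts the cycle under stress. Of 26 of its measured target genes 14 were higher and 1 was lower, with a median difference of 0.24; 0 were lower without any 1 of the starved arrays. The count of higher targets was 9 and 8 without shCDK8 arrays 1 and 2, 8 without shControl array 2, and 10 with each array centred on its median. PLK2, a polo-like kinase, read 8.29 and 8.25 (shControl) against 10.75 and 10.79 (shCDK8) and was 5.65-fold higher (log2 2.50 ± 0.07 SE, adjusted p = 4.73e-08). TP53I3, an oxidoreductase, read 8.14 and 8.14 (shControl) against 9.11 and 9.18 (shCDK8) and was higher in both shCDK8 arrays (adjusted p = 1.83e-05). TIGAR, which lowers glycolytic flux, was 1.72-fold higher, TP53INP1 1.69-fold and ZMAT3, an RNA-binding protein, 1.65-fold. CDKN1A, the inhibitor p21, read 8.60 and 8.57 (shControl) against 9.01 and 9.06 (shCDK8) (0.45 ± 0.10, adjusted p = 0.0146), a call lost without any 1 of the starved arrays (adjusted p between 0.0599 and 0.0874). Of 19 G1 cyclins, their kinases and inhibitors, 2 were higher (10.53%, beside 7.13% of all genes) and 4 lower (21.05%, beside 6.28%). The higher count was 1 without any 1 of the starved arrays, and the lower count was 1 without array 1 of either line and 2 without array 2 of either. CDK6, a kinase that phosphorylates RB in G1, read 7.30 and 7.59 (shControl) against 9.12 and 9.32 (shCDK8) and was 3.43-fold higher (1.78 ± 0.10, adjusted p = 4.81e-06). CCNA2, the cyclin of S phase and G2, was lower by a difference of -0.56 ± 0.08.

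The 3 largest rises were of secreted or membrane-bound signals. SEMA3A, a secreted guidance protein that binds neuropilins, read 6.37 and 6.27 (shControl) against 11.83 and 11.85 (shCDK8) and was 46.0-fold higher (log2 5.52 ± 0.07 SE, adjusted p = 1.26e-10). SEMA3C, of the same class, read 8.22 and 8.23 (shControl) against 10.10 and 10.17 (shCDK8) and was 3.75-fold higher. Of 30 measured semaphorins, plexins and neuropilins 5 were higher and 0 lower (median 0.03), and 3 were higher without array 2 of either line; PLXNA1, a receptor chain, was higher by 0.39. TNFSF18 (GITR ligand) read 4.20 and 4.18 (shControl) against 8.91 and 8.95 (shCDK8) and TNFSF4 (OX40 ligand) read 5.26 and 5.22 (shControl) against 9.63 and 9.71 (shCDK8). They were 26.7-fold and 21.5-fold higher and are neighbours on chromosome 1, with 0 protein-coding genes between them in RefSeq. TNFRSF21, a death domain receptor of the same superfamily, read 8.65 and 8.57 (shControl) against 9.96 and 9.97 (shCDK8) and was 2.56-fold higher, and of 28 measured members 7 were higher and 0 lower (median -0.01).

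EFNB2, a membrane-bound ephrin, read 7.22 and 7.26 (shControl) against 9.46 and 9.62 (shCDK8) and was 4.91-fold higher (log2 2.30 ± 0.07 SE, adjusted p = 9.47e-08). SLIT2, the secreted ligand of ROBO receptors, read 5.25 and 5.22 (shControl) against 6.96 and 7.10 (shCDK8) and was 3.47-fold higher. The receptor tyrosine kinase EPHA2 was higher by 0.76 ± 0.06, and 6 of 31 ephrin, slit and netrin genes were higher and 1 lower (median 0.06), with 0 lower without any 1 of the starved arrays. JAG1, a Notch ligand, read 8.19 and 8.30 (shControl) against 10.64 and 10.75 (shCDK8), a 5.45-fold rise (2.45 ± 0.07, adjusted p = 5.03e-08). HES1, a repressor that Notch induces, read 7.43 and 7.91 (shControl) against 8.92 and 8.79 (shCDK8) and was 2.27-fold higher; its shControl arrays lay farther apart than those of JAG1, with SDs of 0.33 and 0.08. MAML2, a coactivator of Notch, was 1.82-fold higher, and the Notch list had 5 of 24 genes higher and 0 lower (median 0.02), 3 without shCDK8 array 2 or shControl array 1.

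The bone morphogenetic protein (BMP) and TGF-beta list had 17 of 40 measured genes higher and 3 lower, with a median of 0.16. BMP4, a secreted ligand, read 8.91 and 8.56 (shControl) against 11.59 and 11.60 (shCDK8) and was 7.24-fold higher (log2 2.85 ± 0.10 SE, adjusted p = 1.81e-07). Its shCDK8 arrays were nearly equal, and the shControl arrays spread more widely but stayed below both. The targets ID1 and ID3 block differentiation factors. ID1 read 9.13 and 9.03 (shControl) against 10.01 and 10.03 (shCDK8), and ID3 read 8.44 and 8.22 (shControl) against 9.14 and 9.29 (shCDK8). They were 1.92-fold and 1.84-fold higher. Inhibitors of the pathway were higher as well: BAMBI, a decoy receptor, read 6.75 and 6.91 (shControl) against 8.68 and 8.62 (shCDK8) and was 3.53-fold higher, the inhibitory SMAD7 was 1.90-fold higher and the corepressor SKIL 1.95-fold. The ligand TGFB1 was lower, at 8.89 and 8.74 (shControl) against 8.01 and 8.04 (shCDK8) (-0.79 ± 0.07, adjusted p = 1.11e-04), as was the co-receptor TGFBR3 (-0.73 ± 0.12).

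FGF9, a secreted growth factor, read 4.94 and 5.01 (shControl) against 8.08 and 8.35 (shCDK8) and was 9.46-fold higher (log2 3.24 ± 0.17 SE, adjusted p = 2.42e-06). IGF1R, the receptor of insulin-like growth factors, read 6.79 and 6.86 (shControl) against 8.31 and 8.56 (shCDK8), and its adaptor IRS1 read 9.19 and 9.19 (shControl) against 9.92 and 10.02 (shCDK8). Their levels were 3.04-fold and 1.72-fold higher. The FGF and insulin list as a whole had 7 of 25 genes higher and 0 lower (median 0.12), 4 without shControl array 2. INPP4B, a phosphatase that removes a PI3K product, read 7.55 and 7.57 (shControl) against 9.81 and 9.81 (shCDK8) and was 4.75-fold higher.

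Wnt genes include feedback inhibitors and targets of beta-catenin. Of 41 measured 10 were higher and 1 lower (median 0.08), with 6 higher without shControl array 2. RNF43, a ubiquitin ligase that removes Wnt receptors, read 8.71 and 8.72 (shControl) against 10.01 and 9.98 (shCDK8) and was 2.42-fold higher (log2 1.28 ± 0.06 SE, adjusted p = 1.49e-06). CD44, a hyaluronan receptor, read 10.80 and 10.66 (shControl) against 11.75 and 11.78 (shCDK8) and SOX9, a factor of intestinal crypt cells, read 8.07 and 7.89 (shControl) against 9.03 and 8.99 (shCDK8). Each was 2.04-fold higher. WLS, which carries Wnt ligands to the surface, and the secreted inhibitor DKK1 were higher by 0.74 and 0.72, and AXIN2, a widely used beta-catenin target and scaffold of its destruction complex, by 0.61 ± 0.08. FZD6, a Wnt receptor, was lower by a difference of -0.54 ± 0.07.

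In the RAS pathway the kinase ARAF read 8.83 and 8.71 (shControl) against 7.06 and 7.16 (shCDK8) and was 3.16-fold lower (log2 -1.66 ± 0.07 SE, adjusted p = 5.77e-07). RPS6KA1, a kinase downstream of ERK, was lower by a difference of -0.69 ± 0.07. Of 16 core members of the pathway 1 was higher (6.25%, beside 7.13% of all genes) and 3 were lower (18.75%, beside 6.28%). Of 24 feedback inhibitors and direct ERK targets 6 were higher and 3 lower, and the lower count was 0 without any 1 of the starved arrays. IL17RD, an inhibitor of FGF signalling, read 7.89 and 7.95 (shControl) against 9.14 and 9.26 (shCDK8) and was 2.43-fold higher. LRIG1, which promotes loss of EGFR, read 6.03 and 5.95 (shControl) against 7.03 and 7.06 (shCDK8) and was 2.08-fold higher. DUSP6 and ETV4, of the same list, were higher by 0.53 and 0.61. DUSP4 was higher too, with differences between 1.089 and 1.185 over the alternatives.

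Immediate-early genes, which growth factors induce without new protein synthesis, split: of 45 measured in starved cells 11 were higher and 12 lower, with a median of 0.02. EGR1 read 10.50 and 10.56 (shControl) against 9.19 and 9.38 (shCDK8), and FOS read 8.85 and 8.70 (shControl) against 7.42 and 7.63 (shCDK8). Each was 2.38-fold lower (log2 -1.25 ± 0.10 SE and -1.25 ± 0.10, adjusted p = 4.38e-05 and 4.17e-05). Both are transcription factors of the serum response. KLF4 and HES1 were among the higher members, KLF4 at 7.14 and 7.10 (shControl) against 8.19 and 8.18 (shCDK8) and 2.10-fold higher. The count of higher members was 7 without shCDK8 array 2.

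**Figure D3:**
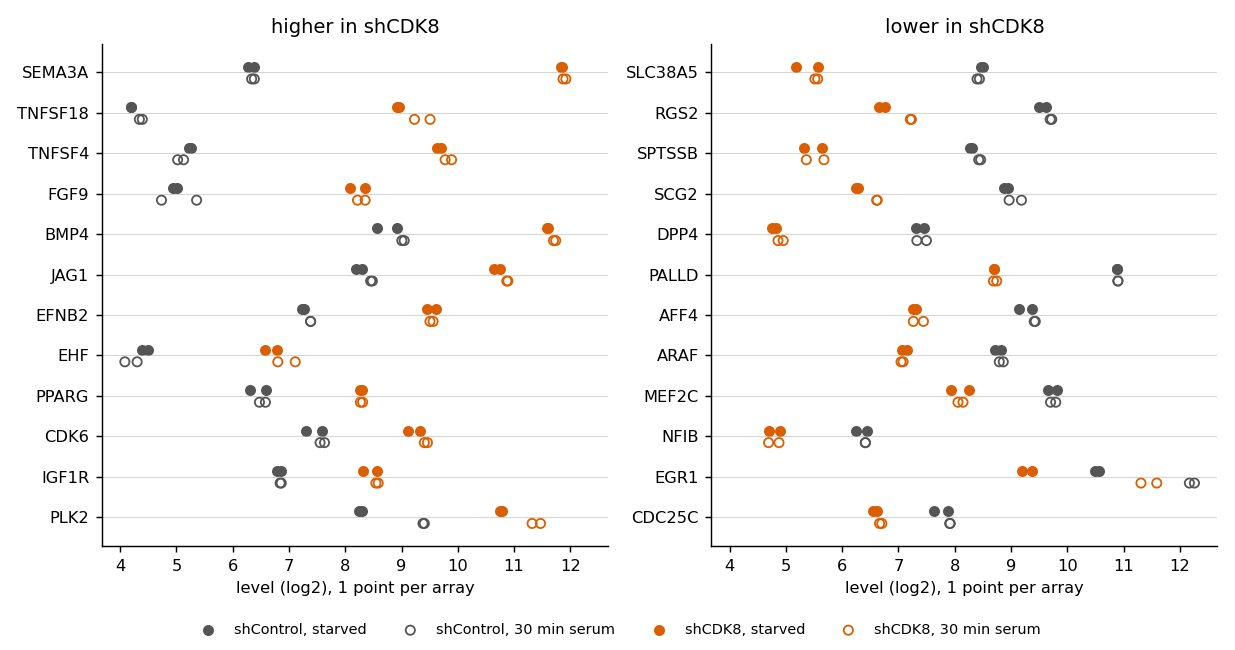
Level of 24 genes (log2, horizontal axis) in each of the 8 arrays, with filled points for starved and open points for serum-treated cells, grey for shControl and orange for shCDK8. In each row the filled orange points lie on one side of the filled grey points, at 11.83 and 11.85 against 6.37 and 6.27 for SEMA3A. This holds for every gene that passed.

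At the cell surface, TM4SF18, a four-pass membrane protein, read 4.15 and 4.29 (shControl) against 8.22 and 8.27 (shCDK8) and was 16.3-fold higher (log2 4.03 ± 0.08 SE, adjusted p = 3.35e-09). ADGRF1, an adhesion G protein-coupled receptor, read 5.66 and 5.66 (shControl) against 8.91 and 9.02 (shCDK8) and was 9.90-fold higher. GPR15, a receptor known for homing of T cells to the colon, read 5.65 and 5.41 (shControl) against 7.35 and 7.57 (shCDK8) and was 3.81-fold higher. RGS2, which shortens signalling by G proteins, moved the other way: it read 9.62 and 9.49 (shControl) against 6.76 and 6.65 (shCDK8) and was 7.21-fold lower (-2.85 ± 0.07, adjusted p = 2.20e-08). GRK2, a kinase that desensitises such receptors, was lower by a difference of -0.70 ± 0.10. Over whole families the median differences were 0.00 for 25 tetraspanins and relatives (5 higher, 1 lower, and 0 lower without any 1 of the starved arrays) and 0.02 for 23 adhesion receptors (4 higher, 0 lower, and 2 without either shCDK8 array or shControl array 2).

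DPP4, a brush border peptidase, read 7.46 and 7.32 (shControl) against 4.83 and 4.76 (shCDK8) and was 6.04-fold lower (log2 -2.59 ± 0.08 SE, adjusted p = 1.02e-07). It was 1 of 2 of the 34 measured colonic differentiation genes to pass; the other, CEACAM1, an adhesion molecule, was higher by 1.04 ± 0.09. CEMIP, which takes part in hyaluronan breakdown, read 5.89 and 5.96 (shControl) against 8.35 and 8.41 (shCDK8) and was 5.47-fold higher, and HAS3, a hyaluronan synthase, was higher by 0.66 ± 0.07. Among 38 integrin, laminin and collagen genes 11 were higher and 1 lower (median 0.02), 6 higher without shCDK8 array 1, 7 without its array 2 and 7 without shControl array 2; 0 were lower without array 1 of either line. ITGB8, an integrin chain known for activating TGF-beta, read 6.40 and 6.65 (shControl) against 7.52 and 7.70 (shCDK8), and THBS1, a matrix protein, read 6.76 and 6.81 (shControl) against 7.71 and 7.81 (shCDK8). They were 2.12-fold and 1.97-fold higher. TINAGL1, a matrix protein, read 7.64 and 7.58 (shControl) against 9.51 and 9.53 (shCDK8) and was 3.75-fold higher.

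Markers of epithelial and of mesenchymal state both had higher members. Of 36 epithelial markers 7 were higher, all 7 whichever array was left out, and 2 lower (median 0.04). The lower count was 1 without shCDK8 array 1 and 0 without shCDK8 array 2 or shControl array 1. KRT7, a simple-epithelium keratin, read 7.02 and 7.09 (shControl) against 7.96 and 7.78 (shCDK8) and was 1.75-fold higher. Of 29 mesenchymal markers 6 were higher and 2 lower (median 0.03), 3 higher without shCDK8 array 2 and 4 without shControl array 2. The lower count was 1 without either shCDK8 array or shControl array 1. SPARC, a matrix glycoprotein, was 2.47-fold higher, and the membrane protease MMP14 read 7.15 and 7.24 (shControl) against 8.05 and 8.33 (shCDK8) and was higher as well. PALLD, an actin scaffold in the same list, read 10.88 and 10.89 (shControl) against 8.70 and 8.70 (shCDK8) and was 4.54-fold lower (log2 -2.18 ± 0.06 SE, adjusted p = 4.73e-08). Among 31 targets of YAP and TEAD 10 were higher and 1 lower (median 0.14), including F3, the tissue factor of blood clotting, at 7.29 and 6.99 (shControl) against 8.18 and 8.03 (shCDK8).

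Several transcription factors were among the 25 largest differences of their direction. EHF, an ETS factor of epithelia, read 4.39 and 4.50 (shControl) against 6.58 and 6.79 (shCDK8) and was 4.73-fold higher (log2 2.24 ± 0.12 SE, adjusted p = 2.51e-06). PPARG, a nuclear receptor of lipid metabolism and colonic epithelium, read 6.58 and 6.31 (shControl) against 8.25 and 8.30 (shCDK8) and was 3.55-fold higher (1.83 ± 0.09). MEF2C, a MADS-box factor, read 9.82 and 9.67 (shControl) against 7.92 and 8.26 (shCDK8) and was 3.14-fold lower (-1.65 ± 0.11). NFIB, of the nuclear factor I family, and ETV1, an ETS factor downstream of ERK, read 6.24 and 6.44 (shControl) against 4.90 and 4.69 (shCDK8) for NFIB and 9.45 and 9.44 (shControl) against 7.80 and 7.84 (shCDK8) for ETV1. They were 2.92-fold and 3.08-fold lower. AFF4, around which the super elongation complex is built, read 9.14 and 9.38 (shControl) against 7.32 and 7.26 (shCDK8) and was 3.91-fold lower (-1.97 ± 0.09, adjusted p = 1.14e-06). Among 31 measured elongation factors 7 were lower and 1 higher (median -0.09); of the 7, AFF4 alone passed whichever array was left out, and the count was 1 without shCDK8 array 1, 4 without its array 2 and 3 without either shControl array. Of 20 intestinal transcription factors 6 were higher and 1, NR5A2, an orphan nuclear receptor (-0.90 ± 0.07), lower (median 0.10), with 3 higher without shCDK8 array 1.

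Other large rises concerned the cytoskeleton, lipids, ions and retinoids. EPB41L4A, a cytoskeletal linker, was 4.85-fold higher, PLA2G7, which hydrolyses platelet-activating factor, 4.68-fold and PHLDB2, a cortical anchor of microtubules, 4.66-fold. ANO1, a calcium-activated chloride channel, was 3.75-fold higher and ALDH1A3, which makes retinoic acid, 3.59-fold. The log2 difference of ALDH1A3 ranged from 1.02 to 1.89 over the alternatives, which include averaged probe sets, so its size depends on the processing.

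Genes of the response to low oxygen and of glycolysis were more often lower than higher. Of 41 measured 17 were lower and 2 higher (median -0.18), and 9 were lower without array 1 of either line. P4HA1, which hydroxylates collagen, read 9.81 and 9.53 (shControl) against 8.61 and 8.68 (shCDK8) and was 2.03-fold lower (log2 -1.02 ± 0.11 SE, adjusted p = 3.35e-04). BNIP3, which directs mitochondria to autophagy, was 1.72-fold lower, and the glucose transporter SLC2A3 and the kinase PDK1, which closes the entry of pyruvate into the citric acid cycle, were lower by differences of -0.73 ± 0.13 and -0.65 ± 0.09. SLC2A1, the main glucose transporter of most cells, read 9.08 and 9.07 (shControl) against 10.84 and 10.87 (shCDK8) and was 3.43-fold higher (1.78 ± 0.07, adjusted p = 3.90e-07). In the respiratory chain 7 of 52 genes were lower and 0 higher (median -0.06), 2 without array 1 of either line and 3 without shCDK8 array 2; NDUFS1, a subunit of complex I, was 1.67-fold lower.

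SLC38A5, a glutamine transporter of the plasma membrane, read 8.47 and 8.50 (shControl) against 5.57 and 5.18 (shCDK8) and was 8.64-fold lower (log2 -3.11 ± 0.11 SE, adjusted p = 1.79e-07). SLC1A3, a glutamate transporter, read 5.87 and 5.67 (shControl) against 6.83 and 6.88 (shCDK8) and was 2.12-fold higher; of 30 amino acid transporters 6 were higher and 3 lower (median 0.07), with 2 or 3 higher without any 1 of the starved arrays. SPTSSB, a subunit of the enzyme that starts sphingolipid synthesis, read 8.30 and 8.28 (shControl) against 5.64 and 5.32 (shCDK8) and was 7.02-fold lower (-2.81 ± 0.12, adjusted p = 5.59e-07). Of 21 cholesterol synthesis genes 6 were higher and 1 lower (median 0.11), with HMGCS1, an early enzyme, higher by 0.56 ± 0.07 and SQLE, a later one, lower by a difference of -0.44 ± 0.06. TFRC, the transferrin receptor, read 11.36 and 11.39 (shControl) against 10.44 and 10.48 (shCDK8), 1.89-fold lower, and HEPH, a ferroxidase of iron export, was 1.96-fold higher. Further falls were SCG2, a granin of secretory vesicles, 6.25-fold, MPP7, a polarity scaffold, 3.23-fold, SEC31A, of the coat of vesicles that leave the endoplasmic reticulum, 3.01-fold and MAOB, a mitochondrial amine oxidase, 2.31-fold.

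Some lists lay near or under the share of all genes. Among 54 ribosomal protein genes 2 were higher and 0 lower (median 0.02), and among 19 cytosolic tRNA synthetases 0 passed. Among 28 proteasome genes 0 were higher and 2 lower (median -0.09). A difference below 0 was found for 22 of the 28, beside 9937 of all 18417 genes. The housekeeping list was not flat, with 4 of 14 genes lower and 0 higher (median -0.15). Its lower count moved without any 1 of the starved arrays. The ribosomal count was 0 or 1 higher, and the proteasome count 0 or 1 lower, without any 1 of the starved arrays. Levels of different probe sets cannot be set against each other, so the label of the line was not tested by the levels of marker genes. The 12 measured markers of a colonic epithelial line ranged from 4.32 to 12.26 in shControl and from 4.15 to 12.70 in shCDK8 cells, with 2 higher and 2 lower in shCDK8. Of 12 fibroblast markers 0 passed the test, and of 18 blood and endothelial markers 0 passed, with 1 lower without shControl array 1. Of 18 neural markers 2 passed, with SCG2 lower and SNAP25, a vesicle fusion protein, higher (0.33, adjusted p = 0.0331, a call lost without any 1 of the starved arrays, with adjusted p between 0.0909 and 0.157).

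**Figure D4:**
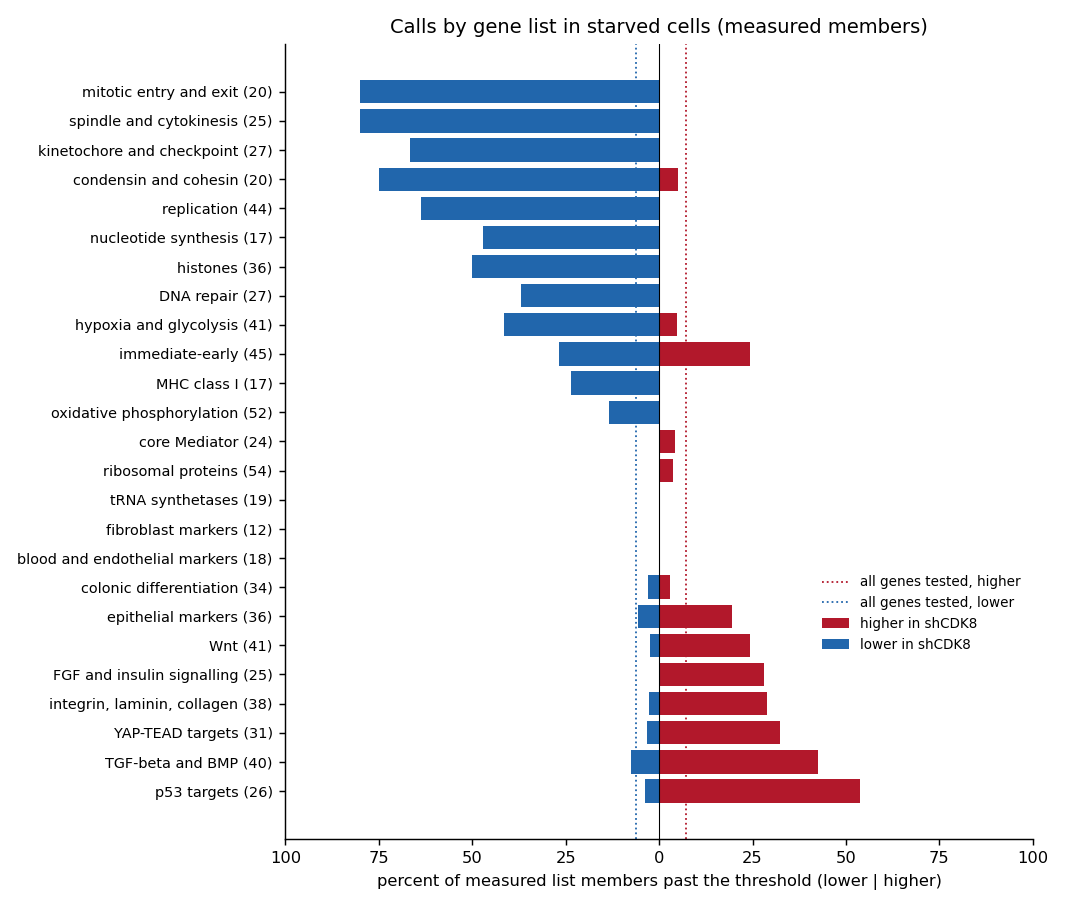
Percent of measured members of 25 of the 64 gene lists (number measured in brackets) that were higher (red, to the right) or lower (blue, to the left) in starved shCDK8 cells, with dotted lines at the shares of all genes, 7.13% and 6.28%. The mitotic lists reach furthest to the left and the p53 targets, with 14 of 26, furthest to the right among the lists drawn.

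The 4 serum arrays, which the starved comparison does not use except for the spread, gave the same sign of line difference for 2436 of the 2470 genes (98.6%), beside 71.0% of all genes. Of the 2470, 1877 also passed after 30 min of serum in the same direction, which is 76.0% of the starved calls and 71.5% of the 2624 calls after serum. All 152 genes with a difference of at least 2-fold had the same sign and passed after serum. Among the 1313 higher genes 96.6% had both serum-treated shCDK8 arrays above both shControl arrays, against 25.9% of all genes, and among the 1157 lower genes 96.1% had them below, against 28.0%. In the difference between the line differences itself, 0 genes passed in limma, with a smallest adjusted p of 0.203; 703 had an unadjusted p below 0.05, and 7 passed with an intensity trend.

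The 5 called genes with the smallest p in that contrast are given as not passing. PLK2 read 8.29 and 8.25 (shControl) against 10.75 and 10.79 (shCDK8) in starved cells, and 9.40 and 9.38 in the shControl arrays and 11.32 and 11.47 in the shCDK8 arrays after serum. DUSP2, a phosphatase of MAP kinases, read 8.25 and 8.38 (shControl) against 7.87 and 7.87 (shCDK8) in starved cells, a difference of -0.45 ± 0.12, and the line difference after serum was -1.58. The starved call of DUSP2 was lost without any 1 of the starved arrays (adjusted p between 0.0782 and 0.180) and without either shControl serum array (0.0542 each). UGT2B10, a glucuronosyltransferase, had line differences of -0.31 and 0.33, LOC728024 of 0.66 and -0.04, and TPTE2, a phosphatase-like membrane protein, of 0.65 and -0.32. The starved call of UGT2B10 was lost without shCDK8 array 1 (adjusted p = 0.0743), shCDK8 array 2 (0.0504) or shControl array 1 (0.0642), and that of TPTE2 without array 1 of shCDK8 (0.0550) or shControl (0.0559) cells. EGR1 and FOS, lower in starved shCDK8 cells, were also lower after serum, by differences of -0.77 and -0.81.

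**Figure D5:**
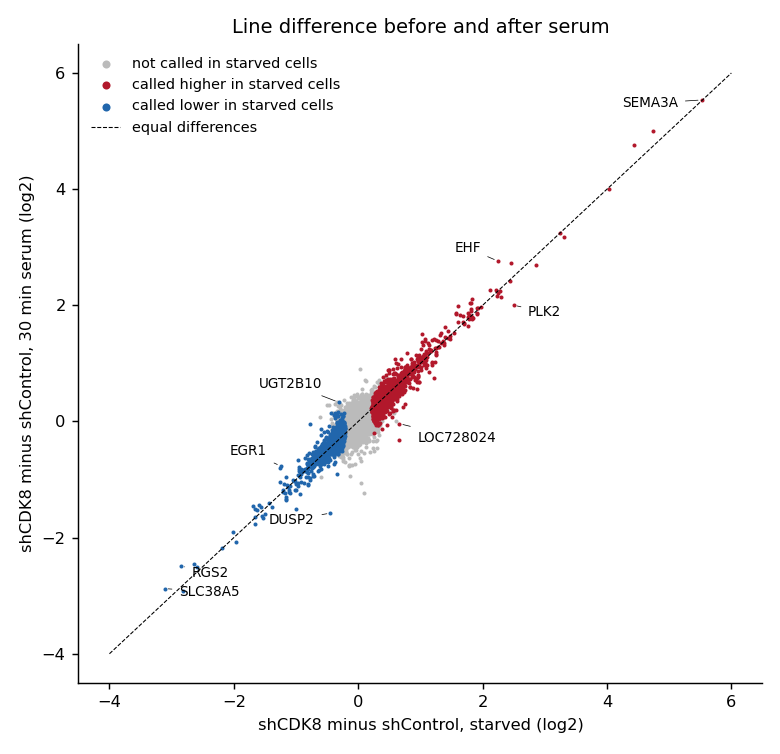
Line difference after 30 min of serum (shCDK8 minus shControl, log2, vertical axis) against that in starved cells (log2, horizontal axis), 1 point per gene, coloured by the call in starved cells, with a dashed line where both are equal. The 152 genes with starved differences of at least 2-fold all lie on the same side of 0 on both axes.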

How the data were processed

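RNA of 8 HCT116 samples was labelled and hybridised to Affymetrix human gene arrays, 1 per sample, in 4 groups of 2. The deposited table holds log2 levels per probe set, which the authors computed with RMA per the submitters' processing notes. The sources used here do not give its version, the genome build or which arrays were normalized together. RMA aligns the distributions of arrays, so a shift common to all genes would not show.

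Of 33297 probe sets, 19460 were paired with exactly 1 gene in the array annotation. For 769 genes with more than 1, the brightest over the series was kept, giving 18417 genes named as in RefSeq (GRCh38.p14). The other 13837 probe sets were not analysed as genes. Values were used without further normalization or filter. Group means of the 4 groups were modelled in limma 3.58.1 (R 4.3.3; 4 residual degrees of freedom, 5.49 prior), with two-sided tests and Benjamini-Hochberg adjustment. A simulation of the starved comparison on 18417 genes recovered 88% of genes shifted by 0.5 and 100% of those shifted by 1. In it 12 of 206 calls were false (5.83%). It drew independent noise for each array and shifted 200 genes, with no effect of culture or line. It therefore does not give the share of false calls in these arrays.

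The comparison, the 64 gene lists and the rule for named genes were chosen with earlier results of these data known. The lists come from general knowledge and some share genes. Named were the kinase module, the 25 largest rises and 25 largest falls without overlap between the lines, up to 6 members per list and 5 genes of the difference between times. SMC3, FZD6, TGFB1, TGFBR3, MCM6, the genes in the closing observations that no list holds, and the description of calls that held whichever of the 8 arrays was left out were chosen after values were seen. Lists are described by counts and medians, with no test. Replicate numbers were not used as pairs in the main fit, and the labels do not say whether they pair the samples. Promoters came from the RefSeq table at the first listed start. The number of arrays limits the precision. Figures were drawn with matplotlib 3.10.9.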

Additional observations from a re-analysis of the deposited data

How the results depend on the processing

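With 2 arrays per group and 1 hairpin per line, the arrays set the precision, and dim genes passed least often. Alternatives set early were a variance prior that follows intensity, only the 4 starved arrays, a replicate block, dim genes dropped, cyclic loess, median centring, averaged probe sets, a 1.5-fold minimum and each of the 8 arrays left out. The total stayed within 1.5 times of 2470 under all of these except the minimum of 1.5-fold and leaving out a starved array. Against a minimum of 1.5-fold, 155 genes passed, 114 higher and 41 lower, since this tests a larger difference. Leaving out 1 array gave totals from 1468 to 2315, with 735 to 1255 higher and 587 to 1060 lower. Of 327 named genes that passed, 224 passed in each of 15 alternatives, those other than the minimum of 1.5-fold and the crossed block, and 0 changed sign. Under the replicate block, 2298 genes passed (1243 higher, 1055 lower); the deviations of same-numbered starved arrays of the lines correlated with r = -0.186, and those of the other pairs of groups between -0.0779 and 0.126. With the numbers of the starved arrays crossed, a block added after seeing the data, 2359 genes passed (1266 higher, 1093 lower). The share of higher among all calls stayed within 10 percentage points under median centring (1219 higher, 1293 lower). The targeted probe set passed as lower in each alternative run on it.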

Other observations

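Probe sets of KLRC2, KLRC3, KLRC4 and KLRK1, receptors known from natural killer cells, were higher in starved shCDK8 cells. They were chosen after their values were seen, and no list of such receptors was fixed. KLRC2 and KLRC3, lectin-like receptors that neighbour each other on chromosome 12, read 4.27 and 4.08 (shControl) against 5.79 and 5.91 (shCDK8) for KLRC2, and 4.82 and 4.80 against 6.05 and 6.52 for KLRC3 (differences 1.68 ± 0.09 SE and 1.48 ± 0.13). Probe set 7961151, annotated to both KLRK1 and the read-through transcript KLRC4-KLRK1, read 5.25 and 5.27 in the shControl arrays and 8.19 and 8.35 in the shCDK8 arrays. Its difference was 3.01 ± 0.08 (adjusted p = 1.39e-05 in limma over all probe sets). Probe set 7961166, annotated to KLRC4 and the same read-through transcript, read 5.18 and 5.24 (shControl) against 7.76 and 7.81 (shCDK8). Its difference was 2.575 ± 0.07 (adjusted p = 1.20e-05 in the same fit). Of other receptors of natural killer cells, KLRC1 (0.24, adjusted p = 0.199), KLRD1 (0.17, 0.286), KLRB1 (0.09, 0.546) and KLRF1 (-0.09, 0.449) did not pass. The KLRC and KLRK1 genes resemble each other and some overlap, so their probe sets may share transcripts. Among 18 blood and endothelial markers 0 passed. The CNTNAP3 family has 5 named probe sets here, each annotated to CNTNAP3, CNTNAP3B and CNTNAP3P2, with differences between 1.63 and 1.96. Of these, 8155540 and 8161460 hold identical values, and the family's near-identical copies cannot be told apart here.

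Of 164 measured microRNA genes, 1 was higher and 1 lower (1.22%, beside 13.4% of all genes). Among the 4605 genes with the lowest mean level, 1.61% were higher and 1.24% lower. The microRNA genes, and the snoRNA genes below, were not compared with others of the same level. The higher microRNA gene was MIR221, which read 7.10 and 6.93 in the shControl arrays and 7.98 and 7.66 in the shCDK8 arrays. Its difference was 0.80 ± 0.14 (adjusted p = 0.00441 in limma). The probe set measures the transcript of the gene and not the mature microRNA. The sequence of hsa-miR-221-3p (RefSeq, GRCh38.p14, chrX:45746180-45746202, minus strand) is shown to identify it, with its seed, bases 2 to 8, in capitals.
hsa-miR-221-3p: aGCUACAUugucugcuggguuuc
MIR222, its neighbour on the X chromosome, did not pass (difference 0.02, adjusted p = 0.928). Of 192 snoRNA and scaRNA genes 3 were higher and 10 lower (6.77%).

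Of 40 interferon-response genes 6 were higher and 6 lower, with IFI44 higher by 0.62 ± 0.07 and IFITM1, which blocks virus entry, lower by a difference of -0.62 ± 0.10; without shCDK8 array 2 the higher count was 1, and without shControl array 2 it was 3. The lower count was 2 without shCDK8 array 1, 3 without shControl array 1 and 2 without its array 2. Of 17 MHC class I genes 4 were lower and 0 higher, with B2M, the light chain, lower by a difference of -0.47 ± 0.06, and 2 were lower without shCDK8 array 2. Of 33 FOXO and starvation genes 7 were higher and 6 lower, with TRIB2, a pseudokinase, higher by 1.33 ± 0.12; the higher count was 4 without shCDK8 array 1 or shControl array 2. Of 28 BCL2-family genes 3 were higher and 3 lower (10.7% each, beside 7.13% and 6.28% of all genes). BCL2L1, an inhibitor of apoptosis, was higher by 0.69 ± 0.06 and MCL1, another, lower by a difference of -0.46 ± 0.07.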
